A study of Mus musculus with 6 samples.

Results

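The proteasome genes of the mouse heart were examined in 6 RNA-seq libraries from mice given an oral anticoagulant drug or none. All 47 listed protein-coding genes whose symbol starts with Psma to Psmg and a digit were taken, out of 16229 listed genes. Of these, 46 encode a part, activator, inhibitor or assembly chaperone of the proteasome, and Psmc3ip, a meiotic recombination factor, shares only the letters of the name. The groups were rivaroxaban at 3 mg/kg for 7 days (libraries 14 and 15), dabigatran at 10 mg/kg for 7 days (libraries 10 and 12) and untreated (libraries 8 and 9). Rivaroxaban inhibits coagulation factor Xa and dabigatran inhibits thrombin. All mice were male wild-type C57BL/6, 8 to 10 weeks old, and the labels call the tissue heart including infarcted and surrounding muscle. Whether the untreated mice had surgery is not stated, nor whether the libraries of a group came from separate animals. P-values therefore measure only the spread between these libraries.

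The proteasome is the protease that degrades most short-lived and damaged intracellular proteins, usually after they are tagged with ubiquitin. Its core is a barrel of stacked alpha and beta rings with the cutting sites inside, and a regulatory particle made of a base and a lid binds, unfolds and feeds in the substrate. In heart muscle it removes damaged contractile proteins, and under interferon-gamma some cutting subunits are exchanged for inducible ones that favour antigen processing. Transcription of the subunit genes is known to be raised together when the proteasome is inhibited, by the factor encoded by Nfe2l1, and under oxidative stress by the factor encoded by Nfe2l2. Both factors bind antioxidant response elements.

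The promoters of 38 of the 46 proteasome genes were matched by symbol to RefSeq windows of 300 bases, 250 before and 50 after the annotated start, on mouse build GRCm38.p6. The core of the antioxidant response element, TGACNNNGC, was searched on both strands and was found in 6 windows (Psmb5, Psmb6, Psmc6, Psmd9, Psmd12 and Psme4). That is 15.8% of the proteasome windows, and 14% of all 27025 genes with a window held it. The windows of Psmb6 and Psme4, the genes with the lowest p of the rivaroxaban comparisons, and of Psmb5, the gene of the chymotrypsin-like site, are shown with the core in capitals. In Psmb5 the heat shock pattern GAANNTTC is also in capitals, at the 5′ end.

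Psmb5, chr14:54617946-54618245, minus strand: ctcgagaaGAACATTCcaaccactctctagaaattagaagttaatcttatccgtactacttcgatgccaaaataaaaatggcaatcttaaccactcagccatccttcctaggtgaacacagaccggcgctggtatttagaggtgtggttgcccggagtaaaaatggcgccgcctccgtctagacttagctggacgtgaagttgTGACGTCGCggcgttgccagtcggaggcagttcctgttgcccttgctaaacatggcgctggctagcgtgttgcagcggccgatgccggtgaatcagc
Psmb6, chr11:70525107-70525406, plus strand: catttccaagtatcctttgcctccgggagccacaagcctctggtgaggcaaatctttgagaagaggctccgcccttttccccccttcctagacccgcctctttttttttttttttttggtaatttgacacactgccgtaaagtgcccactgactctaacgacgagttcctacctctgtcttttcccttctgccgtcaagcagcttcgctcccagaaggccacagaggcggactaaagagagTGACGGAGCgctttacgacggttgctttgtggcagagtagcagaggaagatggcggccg
Psme4, chr11:30771525-30771824, plus strand: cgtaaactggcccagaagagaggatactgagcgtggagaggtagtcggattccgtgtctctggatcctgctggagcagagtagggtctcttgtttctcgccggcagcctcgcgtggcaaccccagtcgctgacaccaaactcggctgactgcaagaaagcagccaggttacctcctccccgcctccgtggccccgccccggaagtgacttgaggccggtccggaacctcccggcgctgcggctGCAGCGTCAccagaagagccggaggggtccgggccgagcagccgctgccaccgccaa

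In Psme4 the core was read on the opposite strand, so that its complement is printed. Heat shock patterns, GAANNTTC or TTCNNGAA, were in 5 proteasome windows (13.2%, against 17% of all genes), and the CCAAT box was in 13 (34.2%, against 41.1%). An interferon-type pattern, a pair of TTTC with 2 free bases between, was in 5 (Psmb3, Psmd4, Psmd9, Psme1 and Psmg4), which is 13.2% against 3.99% of all genes. The windows of the interferon-inducible genes Psmb8, Psmb9 and Psme2 did not hold it. The windows of Psmb9, an interferon-inducible subunit, and Psme1, an interferon-inducible activator, are shown to set these patterns side by side. Capitals mark the GAANNTTC pattern and the CCAAT box (read on the opposite strand as ATTGG) in Psmb9, and the TTTC pair in Psme1.

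Psmb9, chr17:34187281-34187580, minus strand: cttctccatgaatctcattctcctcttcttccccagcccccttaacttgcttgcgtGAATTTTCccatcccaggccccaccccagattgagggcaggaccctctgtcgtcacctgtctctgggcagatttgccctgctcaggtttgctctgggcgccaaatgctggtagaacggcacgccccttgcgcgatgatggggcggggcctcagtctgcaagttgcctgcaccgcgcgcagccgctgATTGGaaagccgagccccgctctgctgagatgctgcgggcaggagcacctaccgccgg
Psme1, chr14:55578244-55578543, plus strand: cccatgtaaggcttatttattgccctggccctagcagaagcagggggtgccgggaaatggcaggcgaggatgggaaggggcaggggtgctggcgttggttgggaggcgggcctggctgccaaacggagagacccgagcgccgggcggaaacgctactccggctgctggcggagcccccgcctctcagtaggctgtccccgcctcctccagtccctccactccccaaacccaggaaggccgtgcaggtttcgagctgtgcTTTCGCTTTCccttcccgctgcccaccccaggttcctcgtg

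These letters describe the windows alone, and no binding was measured.

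The libraries held 27176892 to 43798222 reads in listed genes, and the median proteasome gene had 3156 to 5033 reads, so counting error was small for most members. Cardiomyocyte marker transcripts were abundant in all libraries (summed level over 5 of 7 markers listed 66550 and 68090 CPM with rivaroxaban, 69160 and 69360 with dabigatran, 70540 and 71090 untreated). Of the fresh-infarct list, Spp1, Il1b and Cthrc1 had 4 to 29 reads in each library, while Postn, a matrix gene of activated fibroblasts, had 5.98 and 5.66 log2 CPM with rivaroxaban, 5.72 and 5.74 with dabigatran, and 5.99 and 5.84 untreated. The marker lists of dendritic cells, of T, NK and B cells and of neutrophils each summed to at most 6.10 CPM. In bulk tissue, fewer cells of a type and less RNA per cell cannot be told apart.

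The genes of the proteasome particle, the alpha ring, the constitutive beta ring, the base and the lid, were expressed at high levels per length. Divided by the summed length of all annotated exons of a gene, the 31 subunit genes spanned 16.0 to 103 CPM per kb, with a median of 43.5, as means over 6 libraries. The highest was Psmb5, the chymotrypsin-like cutting site, at 103 ± 6.91 CPM per kb (SD, n = 6), followed within its spread by Psmc3, an ATPase of the base (103 ± 2.52), and Psma6 of the alpha ring (102 ± 3.42). Psmb6 and Psmb7, the caspase-like and trypsin-like sites, had 74.2 ± 4.65 and 62.0 ± 3.17 CPM per kb. The lowest subunit gene was Psma3 of the alpha ring at 16.0 ± 1.04. These ranks depended on the length used. With the length of the principal transcript alone, Psmb7 came first at 183 ± 9.34 CPM per kb, with Psmb6 (174 ± 10.9) and Psmc3 (164 ± 4.02) after it, and Psmb5 stayed at 103.

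The inducible and tissue-restricted subunits were far below. Psmb8, which replaces Psmb5 in the immunoproteasome, had 1.16 ± 0.0698 CPM per kb, 1.12% of the level of Psmb5. Psmb9, which replaces Psmb6, had 2.50 ± 0.281, 3.37% of the level of Psmb6. With the principal transcript these shares were 2.33% and 3.88%. Psma8, the testis form of an alpha subunit, lay at 0.406 ± 0.155 CPM per kb. Psmb10 and Psmb11, the other inducible subunit and the thymus subunit, were not analysed here.

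Activators of the core were within the range of the subunits. Psme1, which with Psme2 forms the interferon-inducible cap, had 73.6 ± 3.10 CPM per kb and Psme2 35.7 ± 1.12. Psme3, the nuclear cap subunit, had 32.5 ± 0.813 and Psme4, a single-chain cap linked to degradation without ubiquitin, 46.3 ± 3.51. The inhibitor gene Psmf1 was lower at 4.54 ± 0.194. Chaperones that assemble the base (Psmd5, Psmd9 and Psmd10) had 3.13 to 8.93 CPM per kb, below every subunit gene of the particle. Of the chaperones of the core, Psmg1, Psmg2 and Psmg4 had 16.7 to 19.3, and Psmg3 was at 0.278 ± 0.0559. Exons of Psmg3 overlap those of Gm26938 on the same strand, so its level may be miscounted.

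**Figure D1:**
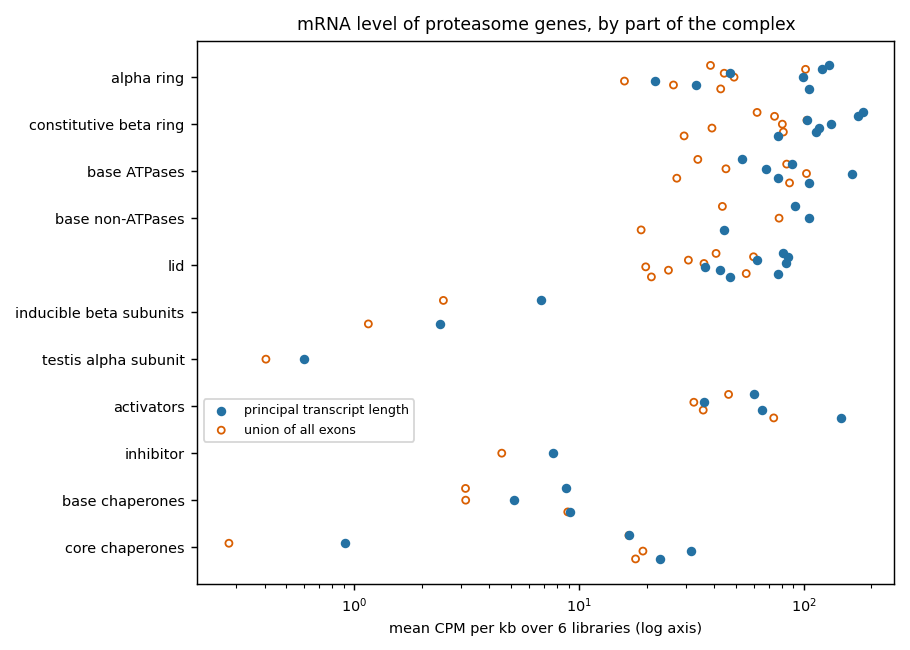
Mean level of each proteasome gene over the 6 libraries in CPM per kb (x axis, log scale), by part of the complex (rows). Filled points use the principal transcript's length and open circles the union of exons, and the 31 particle subunits lie between 16.0 and 183 on either length, while Psmb8, Psmb9 and Psma8 lie between 0.406 and 6.76.

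No proteasome gene passed the test in any comparison. Over all genes that reached a mean of 0 log2 CPM, limma with Benjamini-Hochberg adjustment called 0 of the 45 proteasome genes tested at an adjusted p under 0.05 with rivaroxaban against untreated, where 2.46% of the 12981 tested genes were called. With dabigatran against untreated it called 0 of 45, where 1.88% of all genes were called, and between rivaroxaban and dabigatran 0 of 45, where 0.077% were called. The lowest adjusted p of a proteasome gene was 0.143, 0.258 and 0.155 in these comparisons. At an unadjusted p under 0.05 there were 4 proteasome genes with rivaroxaban against untreated (17.2% of all genes), 3 with dabigatran against untreated (14.7%) and 3 between the drugs (8.43%). A fit of limma-voom to the recovered reads also called 0 in each comparison, with 4, 3 and 3 at an unadjusted p under 0.05. Psmg3, the member below the filter, had log2 CPM of -0.37 and -0.56 with rivaroxaban, -0.12 and -0.21 with dabigatran, and 0.20 and -0.32 untreated, and was not tested.

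The intervals on the changes were narrow. The 95% interval of the difference lay within 1.5-fold either way for 44 of the 45 genes in each comparison, the exception being Psma8, and for 81.6%, 81.7% and 84.6% of all genes. It lay within 1.2-fold for 37 genes with rivaroxaban against untreated, 36 with dabigatran against untreated and 34 between the drugs, where 37%, 39.8% and 44.5% of all genes did. Across the 31 particle subunits the intervals reached from -0.34 to 0.16 on the log2 scale with rivaroxaban against untreated, from -0.19 to 0.26 with dabigatran against untreated and from -0.34 to 0.11 with rivaroxaban against dabigatran. Proteasome genes were also more highly expressed than most: their median level was 6.86 log2 CPM and the median of all tested genes 4.47. Their SD over the 6 libraries had a median of 0.0691 on the log2 scale, and that of all tested genes 0.103.

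**Figure D2:**
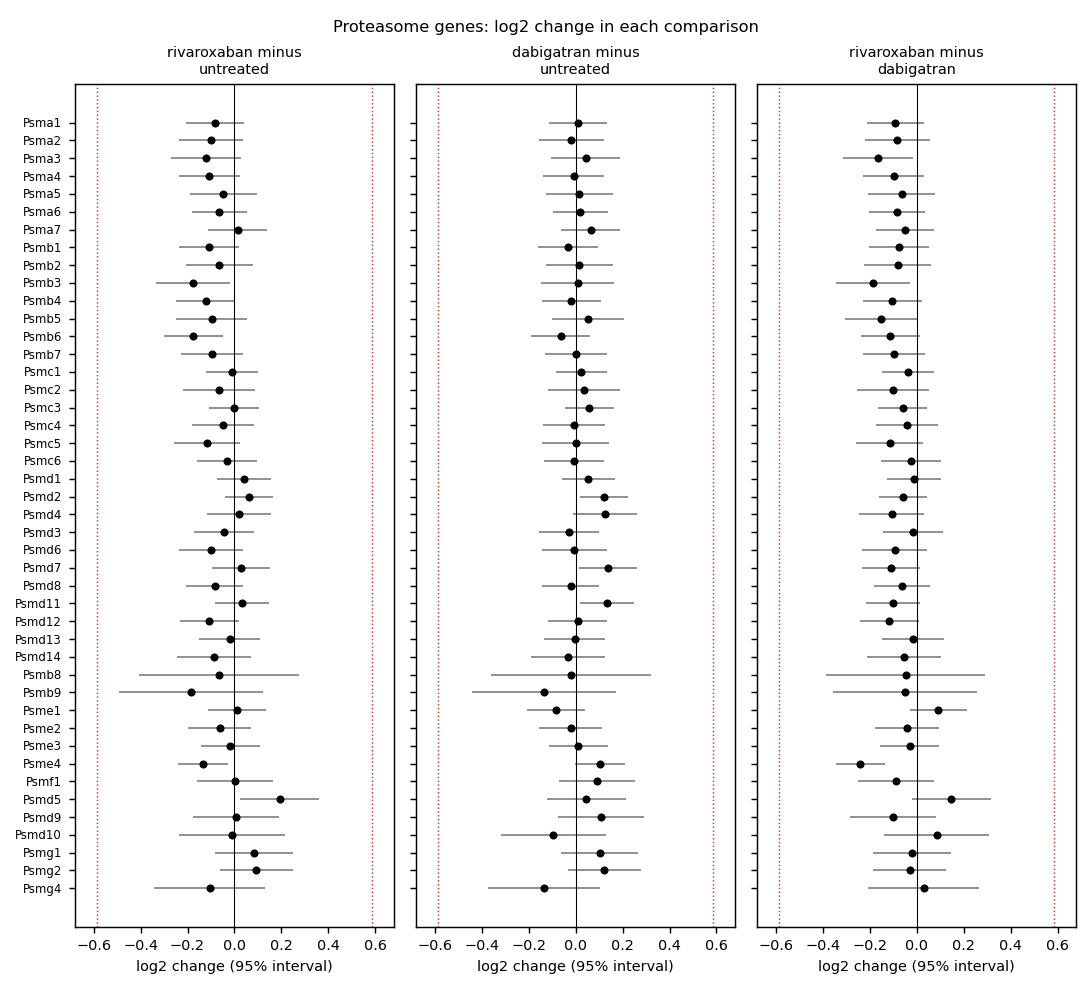
Log2 change (point) with its 95% interval (line) for 44 tested proteasome genes in 3 comparisons, each panel giving the first-named group minus the second. Dotted lines mark 1.5-fold, and no interval reaches them. Psma8, whose intervals run from -1.12 to 1.37, is left out for scale.

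In the constitutive beta ring, which carries the cutting sites, all 7 genes had a log2 change below 0 with rivaroxaban against untreated, a median of -0.11. Psmb6, the caspase-like site (chromosome 11, 70525367 to 70527858, plus strand), had the lowest p. Its log2 CPM was 7.01 and 7.03 with rivaroxaban, 7.18 and 7.09 with dabigatran, and 7.24 and 7.15 untreated. Both rivaroxaban libraries lay below all others, and the dabigatran and untreated libraries overlapped. The log2 change with rivaroxaban against untreated was -0.18 (SE 0.0571, 95% interval -0.30 to -0.05, adjusted p = 0.143), which did not pass.

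Psmb3, a structural beta subunit, had log2 CPM of 6.40 and 6.33 with rivaroxaban, 6.63 and 6.48 with dabigatran, and 6.62 and 6.47 untreated. The rivaroxaban libraries were again lowest, while library 10 of dabigatran and library 8 of untreated stood above their partners by almost as much. Its log2 change was -0.18 with rivaroxaban against untreated (SE 0.0712, adjusted p = 0.235) and -0.19 with rivaroxaban against dabigatran (adjusted p = 0.518). Psmb4, another structural subunit, had -0.12 with rivaroxaban against untreated (adjusted p = 0.301).

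The chymotrypsin-like gene Psmb5 (chromosome 14, 54614119 to 54618022, minus strand) had log2 CPM of 6.49 and 6.41 with rivaroxaban, 6.68 and 6.53 with dabigatran, and 6.62 and 6.49 untreated. The trypsin-like gene Psmb7 had 7.65 and 7.68 with rivaroxaban, 7.78 and 7.75 with dabigatran, and 7.84 and 7.68 untreated. For both, rivaroxaban and untreated libraries overlapped, and the rivaroxaban libraries were below those of dabigatran. Psmb5 had a log2 change of -0.15 with rivaroxaban against dabigatran (95% interval -0.30 to 0.00, adjusted p = 0.596), and the interval of Psmb7 ran from -0.23 to 0.04.

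The exchange of cutting subunits was read from the ratio of each inducible gene to the one it replaces. The log2 ratio of Psmb8 to Psmb5 was -4.59 and -4.42 with rivaroxaban, -4.77 and -4.44 with dabigatran, and -4.67 and -4.39 untreated. That of Psmb9 to Psmb6 was -3.93 and -3.89 with rivaroxaban, -4.23 and -3.70 with dabigatran, and -3.96 and -3.82 untreated. The groups overlapped in every comparison of both ratios, and exact two-sided permutation tests gave p of 0.667 to 1, where 2 libraries against 2 cannot go below 0.333. The difference in the Psmb9 ratio changed sign when a dabigatran library was left out: with dabigatran against untreated it was 0.192 without library 10 and -0.336 without library 12. Psmb8 itself had 95% intervals of -0.41 to 0.27 with rivaroxaban against untreated and -0.36 to 0.32 with dabigatran against untreated, and Psmb9 had -0.49 to 0.12 and -0.44 to 0.17.

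Psmb8 and Psmb9 lie in the major histocompatibility region of chromosome 17, with Tap1, a peptide transporter gene, between them. Exons of Psmb9 overlap those of Tap1 on the other strand. The kit keeps strand, but whether counting used it is not given, so reads of Psmb9 and Tap1 may be shared. In dabigatran library 10 these 3 genes were lower than in library 12: Psmb8 had 1.91 against 2.09 log2 CPM, Psmb9 2.95 against 3.38 and Tap1 3.74 against 4.18. Of 12 tested interferon-gamma antigen-processing genes outside the symbol rule, 0 were called by limma or by limma-voom in any comparison. With rivaroxaban against untreated, dabigatran against untreated and rivaroxaban against dabigatran, limma gave an unadjusted p under 0.05 for 1, 1 and 2 of them. Of all tested genes, 17.2%, 14.7% and 8.43% had such a p. The lowest adjusted p of the 12 genes was 0.28, 0.34 and 0.518 in the same order.

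The alpha ring, which gates the barrel, had a median log2 change of -0.08 with rivaroxaban against untreated, 0.02 with dabigatran against untreated and -0.08 with rivaroxaban against dabigatran. Psma3 had the lowest p of its 7 genes between the drugs, with log2 CPM of 5.88 and 5.84 with rivaroxaban, 6.07 and 5.98 with dabigatran, and 6.05 and 5.91 untreated. The rivaroxaban libraries lay below the other 4, with a log2 change of -0.16 against dabigatran (adjusted p = 0.545). In the base, the 6 ATPase genes that unfold the substrate had medians of -0.04, 0.01 and -0.05 in the same order of comparisons. Psmc3, the most abundant ATPase gene per length, had 8.04 and 8.05 log2 CPM with rivaroxaban, 8.12 and 8.09 with dabigatran, and 8.07 and 8.03 untreated.

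The 3 base genes that are no ATPases, Psmd1, Psmd2 and Psmd4, had log2 changes above 0 with either drug against untreated. Adrm1, another ubiquitin receptor of the base, lies outside the symbol rule and had -0.10 with rivaroxaban and -0.03 with dabigatran against untreated (adjusted p = 0.412 and 0.868). Psmd2, a scaffold that docks ubiquitin-carrying proteins (chromosome 16, 20651652 to 20663414, plus strand), had log2 CPM of 8.29 and 8.30 with rivaroxaban, 8.36 and 8.35 with dabigatran, and 8.23 and 8.24 untreated. No 2 groups overlapped. Its log2 change with dabigatran against untreated was 0.12 (SE 0.0463, adjusted p = 0.258). Psmd4, a ubiquitin receptor, had 6.92 and 6.88 with rivaroxaban, 7.09 and 6.93 with dabigatran, and 6.89 and 6.88 untreated, a log2 change of 0.13 with dabigatran against untreated (adjusted p = 0.379).

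In the lid, which removes ubiquitin from substrates, 2 of 8 genes were among the lowest p with dabigatran. Psmd11, a lid scaffold (chromosome 11, 80428615 to 80473248, plus strand), had log2 CPM of 7.07 and 7.02 with rivaroxaban, 7.17 and 7.12 with dabigatran, and 7.02 and 7.00 untreated. Psmd7, the partner of the deubiquitinating subunit Psmd14, had 7.05 and 7.06 with rivaroxaban, 7.20 and 7.12 with dabigatran, and 7.07 and 6.98 untreated. In both the dabigatran libraries were the highest, with log2 changes of 0.13 (adjusted p = 0.266) and 0.14 (adjusted p = 0.285) against untreated. Psmd12, a further lid gene, had -0.12 with rivaroxaban against dabigatran (adjusted p = 0.612).

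Among the activators, Psme4 (chromosome 11, 30771726 to 30880361, plus strand) had the lowest p of all members. Its log2 CPM was 8.48 and 8.47 with rivaroxaban, 8.69 and 8.73 with dabigatran, and 8.64 and 8.58 untreated. The untreated libraries lay between those of the drugs, with no overlap between any 2 groups. The log2 change was -0.24 with rivaroxaban against dabigatran (SE 0.0481, 95% interval -0.35 to -0.13, fold 0.847, unadjusted p = 0.000441), and its adjusted p of 0.155 did not pass. Against untreated it was -0.13 with rivaroxaban (adjusted p = 0.183) and 0.11 with dabigatran (adjusted p = 0.344).

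The interferon-inducible pair Psme1 and Psme2 lies side by side on chromosome 14. Psme1 had log2 CPM of 7.42 and 7.34 with rivaroxaban, 7.31 and 7.26 with dabigatran, and 7.32 and 7.41 untreated, and Psme2 had 5.98 and 5.91 with rivaroxaban, 6.03 and 5.94 with dabigatran, and 6.01 and 6.00 untreated. Psme3 had 6.61 and 6.52 with rivaroxaban, 6.60 and 6.59 with dabigatran, and 6.60 and 6.56 untreated. The inhibitor gene Psmf1 had 4.78 and 4.91 with rivaroxaban, 4.92 and 4.94 with dabigatran, and 4.85 and 4.84 untreated. For these 4 genes every 95% interval included 0 and no adjusted p was below 0.543.

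Of the assembly chaperones, Psmd5, which holds ATPases of the base before they join, had log2 CPM of 4.61 and 4.63 with rivaroxaban, 4.52 and 4.43 with dabigatran, and 4.40 and 4.45 untreated. The rivaroxaban libraries were the highest, with a log2 change of 0.19 against untreated (SE 0.0763, adjusted p = 0.231). Psmg2, a chaperone of the alpha ring, had 0.12 with dabigatran against untreated (adjusted p = 0.465). Pomp, the maturation factor of the core, had 6.53 and 6.52 with rivaroxaban, 6.59 and 6.57 with dabigatran, and 6.64 and 6.52 untreated. Psmc3ip, the gene outside the proteasome, had a log2 change of -0.35 with rivaroxaban against untreated (adjusted p = 0.341).

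Read over the whole particle, small differences ran in 1 direction between the drugs. With rivaroxaban against dabigatran all 31 subunit genes had a log2 change below 0, where 49.6% of all tested genes did, with a median of -0.08 against 0.00 for all tested genes. In 23 of them both rivaroxaban libraries lay below both dabigatran libraries, where 20.4% of all genes did, and in 0 both lay above, where 19.3% of all genes did. With rivaroxaban against untreated 25 of 31 were below 0 (48.5% of all genes), with a median of -0.07, and 16 lay below untreated without overlap (24.5% of all genes) and 2 above (26.1%). With dabigatran against untreated 13 of 31 were below 0 (49.2% of all genes), with a median of 0.01, and 7 lay above untreated without overlap (22.8% of all genes) and 0 below (20.8%). These comparisons share libraries, and subunit genes are not replicates of a drug, so no test was made over them.

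Differences of the same size ran between libraries of 1 group. Dabigatran library 10 was above library 12 in 29 of the 31 subunit genes, by a median of 0.08 on the log2 scale, and untreated library 8 was above library 9 in 28, by a median of 0.09. Rivaroxaban library 14 was above library 15 in 15 of 31, by a median of -0.01. Of all tested genes, 49.7%, 51.4% and 50.9% were higher in the first-named library of these pairs. The deviation from each gene's own mean over the 6 libraries had a median over the 31 genes of -0.05 and -0.03 with rivaroxaban, 0.07 and 0.00 with dabigatran, and 0.08 and -0.03 untreated. Untreated library 9 was close to rivaroxaban library 15, and untreated library 8 was the highest of all. Between the drugs, 30 of 31 genes stayed below 0 without dabigatran library 10, where the median was -0.045, and 30 without library 12, where it was -0.12.

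**Figure D3:**
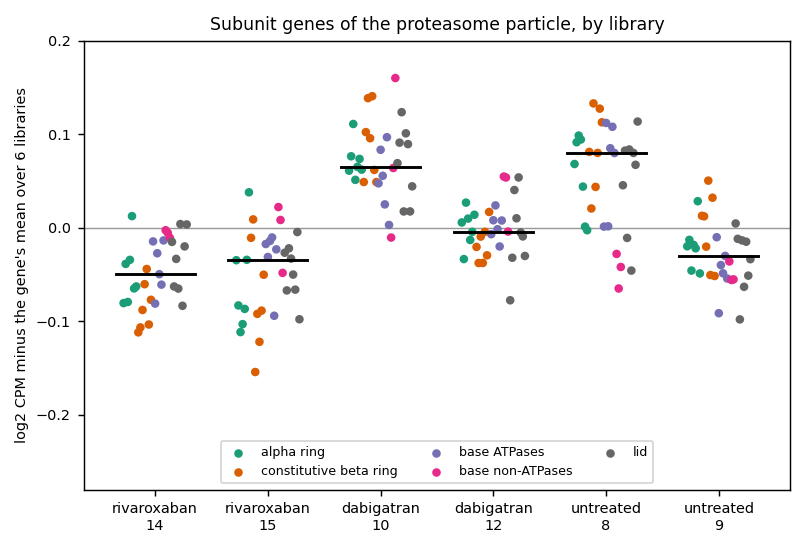
Log2 CPM of each of the 31 particle subunit genes minus its own mean over the 6 libraries (y axis), by library (x axis). Points are genes coloured by part, spread sideways for legibility, and bars are medians, which lie at -0.05 and -0.03 with rivaroxaban, 0.07 and 0.00 with dabigatran, and 0.08 and -0.03 untreated.

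Other measures were set beside these medians, and they followed them only in part. The 46 proteasome genes took 0.484% and 0.481% of reads with rivaroxaban, 0.508% and 0.495% with dabigatran, and 0.504% and 0.486% untreated. The summed cardiomyocyte markers given above were also lowest in both rivaroxaban libraries, but they were highest in both untreated libraries. Myh6, Tnnt2, Myl2 and Tnni3 had log2 changes below 0 with either drug against untreated. Ryr2 did not follow the sum: it had 10.31 and 10.37 log2 CPM with rivaroxaban, 10.45 and 10.44 with dabigatran, and 10.34 and 10.33 untreated. In the dabigatran and untreated pairs the library with the higher subunit level was the shallower one. Depths were 27176892 against 43798222 reads with dabigatran and 28624427 against 32285438 reads untreated. In rivaroxaban libraries 14 and 15, at 35895896 and 29028033 reads, the median deviations of the subunit genes were -0.05 and -0.03. Rivaroxaban library 15 was thus nearly as shallow as untreated library 8, whose median deviation was 0.08. The part of depth and of cardiomyocyte RNA in these differences was not tested.

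Genes that control or surround the proteasome were read next. The first list held 14 tested regulators, assembly factors and subunits named outside the Psm series. With rivaroxaban against untreated 2 were called higher and 0 lower, where 1.47% and 0.986% of all tested genes were. With dabigatran against untreated 1 was called higher and 0 lower, where 1.38% and 0.501% of all tested genes were. Nfe2l2, which encodes an oxidative stress factor (chromosome 2, 75675513 to 75704641, minus strand), had log2 CPM of 6.89 and 7.03 with rivaroxaban, 6.97 and 6.85 with dabigatran, and 6.63 and 6.53 untreated. Both drug groups lay above the untreated libraries. It rose by 0.38 on the log2 scale with rivaroxaban (SE 0.0682, limma adjusted p = 0.0171) and by 0.33 with dabigatran (adjusted p = 0.0376). Leaving out a library ended the call with rivaroxaban without rivaroxaban library 15 (adjusted p = 0.22) or untreated library 9 (0.0846), and with dabigatran without dabigatran library 10 (0.209), untreated library 8 (0.0858) or untreated library 9 (0.144).

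Ddi2, the protease that cuts the Nfe2l1 product into its active form (chromosome 4, 141677549 to 141723419, minus strand), had log2 CPM of 5.75 and 5.84 with rivaroxaban, 5.82 and 5.65 with dabigatran, and 5.42 and 5.42 untreated. It rose by 0.38 with rivaroxaban against untreated (SE 0.0714, adjusted p = 0.0226) and had 0.32 with dabigatran against untreated (adjusted p = 0.0529), which did not pass. The rivaroxaban call was lost without either rivaroxaban library (adjusted p = 0.0684 without library 14 and 0.241 without library 15) and without either untreated library (0.105 without library 8 and 0.0814 without library 9), and the dabigatran value passed without dabigatran library 12 (0.0282). Nfe2l1 itself, the main inducer of proteasome genes, had 9.24 and 9.29 with rivaroxaban, 9.28 and 9.30 with dabigatran, and 9.20 and 9.26 untreated, with log2 changes of 0.03 (adjusted p = 0.792) and 0.06 (adjusted p = 0.637) against untreated.

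**Figure D4:**
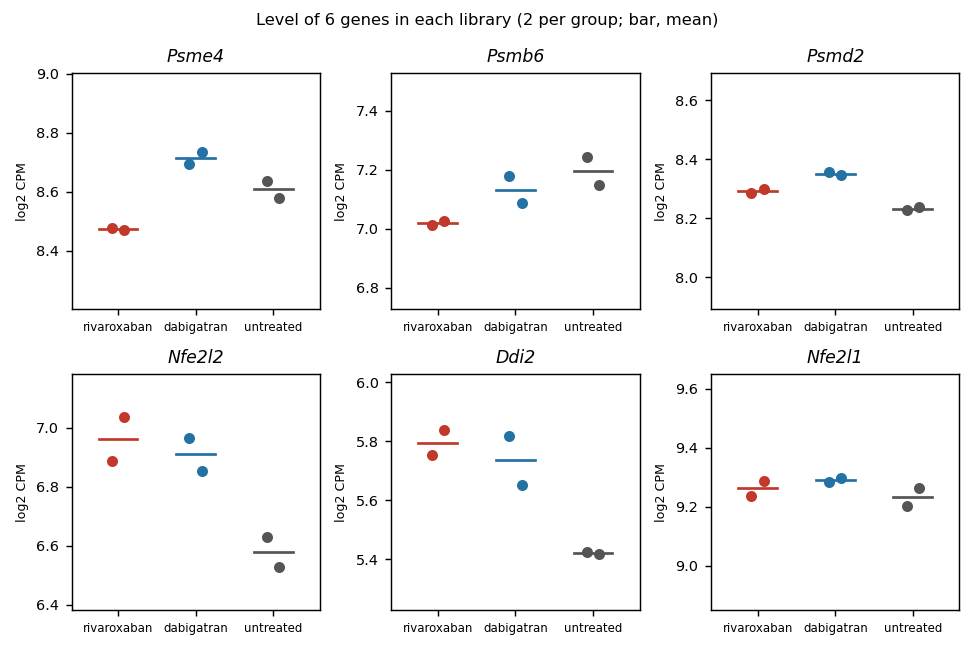
Log2 CPM (y axis) of 6 genes in each library by group (x axis), with points for the 2 libraries and a bar for their mean; every panel spans 0.8 on the log2 scale. Nfe2l2 and Ddi2 lie higher in both drug groups than in untreated libraries, and Psme4 is lowest with rivaroxaban. In Nfe2l1 the rivaroxaban libraries overlap both other groups. The dabigatran libraries (9.28 and 9.30) lie above the untreated libraries (9.20 and 9.26) in that gene.

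No gene of ubiquitin supply or delivery passed the test. Limma and limma-voom called 0 of 5 ubiquitin and activating-enzyme genes and 0 of 13 genes of ubiquitin shuttles and the VCP segregase in each comparison. With rivaroxaban against untreated 2 and 1 of them had an unadjusted p under 0.05 in limma (lowest adjusted p 0.173 and 0.161), where 17.2% of all genes did. With dabigatran against untreated 1 and 2 did (lowest adjusted p 0.303 and 0.191), where 14.7% of all genes did. Between the drugs 0 and 1 did, where 8.43% of all genes did. Ubb, a polyubiquitin gene, had a log2 change of 0.09 with rivaroxaban against untreated and of 0.08 with dabigatran against untreated. Of 13 ubiquitin ligases of heart and muscle, limma called 1 higher with dabigatran against untreated, where 1.38% of all genes were called higher. It called 0 with rivaroxaban against untreated, where 2.46% of all genes were called, and limma-voom called 0 in both comparisons. At an unadjusted p under 0.05 limma had 6 with dabigatran against untreated (14.7% of all genes) and 4 with rivaroxaban against untreated (17.2%). The gene called was Fbxo30, a ligase linked to muscle atrophy, with log2 CPM of 4.89 and 5.07 with rivaroxaban, 5.10 and 5.02 with dabigatran, and 4.65 and 4.73 untreated. Its log2 change with dabigatran was 0.37 (SE 0.0815, adjusted p = 0.0471), and leaving out any dabigatran or untreated library, or either rivaroxaban library, gave adjusted p of 0.0533 to 0.23. The atrophy ligase Fbxo32 had 0.29 with rivaroxaban (adjusted p = 0.0795) and 0.22 with dabigatran (0.206), and Trim63, a ligase of contractile proteins, -0.06 and -0.05. Trim55, a relative of Trim63 in the sarcomere, had -0.17 with rivaroxaban and -0.19 with dabigatran against untreated (adjusted p = 0.117 and 0.0962). Trim54, a further relative, had -0.07 and 0.17 in the same order (limma adjusted p = 0.529 and 0.187). With rivaroxaban against dabigatran it had -0.24 (adjusted p = 0.223). Between the drugs none of the genes of these lists was called.

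Of the cell type marker lists, 5 cardiomyocyte, 6 endothelial, 5 fibroblast and 8 macrophage markers were tested. They had 0 calls by limma or limma-voom in any comparison. Limma called 2.46% of all tested genes with rivaroxaban against untreated, 1.88% with dabigatran against untreated and 0.077% between the drugs. Against untreated, 17.2% of all genes had an unadjusted p under 0.05 with rivaroxaban and 14.7% with dabigatran. In these lists limma gave such a p for 0 to 3 genes per list. The 3 were of 5 fibroblast genes with rivaroxaban against dabigatran, where 8.43% of all genes had such a p. They were Col1a1, Tcf21 and Lum, with log2 changes of 0.28, 0.29 and 0.19 (limma adjusted p = 0.525 to 0.545). Pdgfra and Dcn had -0.04 and -0.08. The mesothelial list, markers of the lining of the heart's surface, did change. With rivaroxaban against untreated Msln, Upk3b and Krt19 fell and Wt1 rose, where 0.986% of all tested genes were called lower and 1.47% higher. With dabigatran against untreated Msln and Upk3b fell and Wt1 rose, where 0.501% were called lower and 1.38% higher. The log2 changes of Msln were -1.23 with rivaroxaban and -0.74 with dabigatran against untreated (limma adjusted p = 0.000814 and 0.0163). In the same order those of Upk3b were -0.93 and -0.76 (0.00285 and 0.0115). Krt19 had -1.45 and -0.84 (0.00551 and 0.0821), and Wt1 had 0.47 and 0.51 (0.0289 and 0.0274). Without any 1 library Msln and Upk3b kept their rivaroxaban calls, while Krt19 lost its call without rivaroxaban library 15 (adjusted p = 0.0689) or untreated library 8 (0.0507) and Wt1 without any library of either group (0.0814 to 0.17). With dabigatran, Msln, Upk3b and Wt1 all lost their calls without dabigatran library 10 (0.0792 to 0.0969) or untreated library 8 (0.0658 to 0.136), as did Msln without untreated library 9 (0.0863) and Wt1 without dabigatran library 12 (0.0954) or untreated library 9 (0.0719). The summed level of the list was 36.6 and 41.6 CPM with rivaroxaban, 43.2 and 47.8 with dabigatran, and 62.6 and 65.4 untreated. The red cell membrane gene Slc4a1 rose with dabigatran against untreated (log2 change 2.12, adjusted p = 0.0487), on 7 to 74 reads per library, and lost its call without any library other than untreated library 8 (0.0661 to 0.275). With rivaroxaban against untreated the log2 change of Slc4a1 was 1.67 (limma adjusted p = 0.0982), which did not pass. Its log2 CPM was 0.91 and 0.37 with rivaroxaban, 1.38 and 0.81 with dabigatran, and -0.20 and -1.85 untreated. Of 6 listed red cell markers only Slc4a1 was analysed here. The part of the cell types above in the levels of proteasome genes was not tested.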

How the data were processed

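Poly-A RNA of heart tissue was made into directional libraries, per the labels' protocols. STAR, edgeR, Trim Galore, FastQC, bcl2fastq and the build mm10 are named in the submitters' processing notes. Versions, counter, annotation and strand setting are not given in any source used here. The authors deposited log2 CPM, scaled by TMM per the file headers. A floor of 0.0609 CPM (log2 -4.04) is shared by all libraries, so changes of low genes are understated. After subtracting it, 100% of values below 200 reads were whole reads within 0.05, which gave each library's depth.

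Genes that reached a mean of 0 log2 CPM (12981 of 16229) entered a fit of 3 group means (limma 3.58.1, R 4.3.3; eBayes with trend) over all 6 libraries, with 3 residual and 7.75 prior degrees of freedom. Tests were two-sided, Benjamini-Hochberg adjusted over all tested genes, at 0.05. Ratios used exact permutation tests. Levels per kb used GENCODE M21 (GRCm38) exon lengths by Ensembl ID (47 of 47 matched), and promoter windows are from RefSeq, GRCm38.p6. Exons of 9 members overlap another protein-coding gene, so their reads may be shared. In 8 the overlap is on the other strand, and in 2, Psmd1 and Psmg3, on the same strand.

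In simulated data of this design each gene had the typical SD of its expression level and independent normal noise. Differences in spread between genes of like level, and shifts shared by many genes of a library, were left out. Limma recovered 30%, 40% and 54% of 50 genes changed by 0.25 on the log2 scale with rivaroxaban against untreated, dabigatran against untreated and rivaroxaban against dabigatran. Of those changed by 0.5 it recovered 80%, 86% and 82%. Each comparison had a single draw and the same design, so these shares do not rank the comparisons, and recovery in the real data may differ. Members and lists were chosen with earlier results of these data known. Named with values are the 6 lowest p per comparison, catalytic, inducible, activator and inhibitor genes, members below the filter, every gene called in the lists, and Nfe2l1, Pomp, Ubb, Trim63 and Fbxo32 (a further gene of this rule is not reported here); others were chosen after their values were seen. Alternatives were other filters, scalings, limma settings, 2-group fits, leaving out each library and limma-voom.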

Additional observations from a re-analysis of the deposited data

How the results depend on the processing

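Under 15 other settings per comparison (no or a stricter filter, quantile or median scaling, log2(CPM + 1), limma without trend or with robust variance, 2-group fits, each library left out, and limma-voom on recovered reads, added after seeing the data) limma called 0 of the proteasome genes tested every time. Of 945 alternative values of 63 named member changes, 945 stayed short of the threshold, and 41 changed sign, none of which had an unadjusted p under 0.05 as reported. Leaving out each library moved the median log2 change of proteasome genes with rivaroxaban against untreated between -0.0796 and -0.0255, and with dabigatran against untreated between -0.0251 and 0.0532. That of the 31 particle subunits moved between -0.12 and -0.0255 with rivaroxaban against untreated, between -0.0378 and 0.0571 with dabigatran against untreated and between -0.12 and -0.045 with rivaroxaban against dabigatran. The subunits below 0 numbered 3 to 23 with dabigatran against untreated, 20 to 27 with rivaroxaban against untreated and 30 to 31 with rivaroxaban against dabigatran; limma-voom gave 27 in the last. The difference in the log2 ratio of Psmb9 to Psmb6 ran from -0.336 to 0.192 with dabigatran against untreated and from -0.203 to 0.324 with rivaroxaban against dabigatran. Without the mean-variance trend the calls of Nfe2l2 (adjusted p = 0.17 with rivaroxaban and 0.243 with dabigatran), Ddi2 (0.156), Fbxo30 (0.216), Slc4a1 (0.244) and the mesothelial genes (0.0646 to 0.181) were lost. With dabigatran against untreated, quantile scaling also ended the calls of Nfe2l2 (0.0543), Fbxo30 (0.0868) and Slc4a1 (0.072), and Fbxo30 lost its call with median centring (0.0544), limma-voom (0.0614) or a 2-group fit (0.0547). Slc4a1 lost its call with robust variance (0.103) or a 2-group fit (0.0686), and Ddi2 passed with robust variance (0.0345). The cause was not tested.

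Only 2 libraries per group limit every comparison, and low read counts limit Psma8 and Psmg3. For Psmg3 the same-strand overlap is a further limit. The planned ratio of Psmb10 to Psmb7 was not run, since Psmb10 was not analysed here. No paired analysis was possible because the library numbers 8, 9, 10, 12, 14 and 15 are not shared between groups.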
